A study of Mus musculus with 45 samples.

Results

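The transcripts described here encode the proteins of the cytosolic ribosome. Members were the protein-coding genes of the deposited hippocampal table whose symbols are those of the ribosomal proteins: Rpl or Rps with a number and at most 1 of the letters a, l, x and y, the 3 stalk proteins Rplp0 to Rplp2, and Rpsa. The rule found 77 members among 15897 genes, 46 of the large subunit and 31 of the small subunit. The rule itself uses no measured value, but the members were chosen with earlier results of these data known. The authors had reported enrichment of ribosome-related terms among the genes that differed with diet. The annotation holds 80 such genes, and Rpl3l, Rpl10l and Rpl39l were not in the table. The pseudogene Rps4l matched by symbol but is not protein-coding, and Fau, Rps3a1 and Rack1, which also belong to the ribosome, carry symbols outside the rule and are given separately.

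RNA was sequenced from the hippocampus of 45 female mice with a C57Bl/6J background. Wild-type littermates (AwTw) were compared with mice carrying human tau P301L under the CaMKII promoter (AwT+), with mice carrying chimeric mouse/human APPswe and human PS1dE9 in a single transgene under the mouse PrP promoter (A+Tw), and with the cross of both lines (A+T+). From 7 to 13 months of age the mice received standard diet (STD; 5% fat, 0% cholesterol) or typical western diet (TWD; 21% fat, 0.15% cholesterol, 35% sucrose). Each of the 8 groups held 6 mice except A+Tw/STD with 5 and A+T+/STD with 4. The labels divide the mice into batch 0 (8 STD and 12 TWD) and batch 1 (13 STD and 12 TWD), and only 1 A+Tw/STD mouse was in batch 0.

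Values are the authors' variance-stabilised, batch-corrected levels on a log2 scale, so a difference of 1 corresponds to about a doubling of a well-expressed transcript. They hold no counts, so the depth behind each mouse's values is unknown. As a check of the labels, App, part of whose mouse sequence the APPswe/PS1dE9 transgene carries, and Prnp, whose promoter drives it, were higher in every A+ mouse than in every Aw mouse (App 15.05 to 15.80 against 14.29 to 14.86, Prnp 14.65 to 15.02 against 13.28 to 13.98). Mapt, the mouse tau gene, overlapped between all genotypes and does not check the tau label. All 8 hippocampal neuron markers were in the table, from 7.98 (Spink8) to 11.3 (Fibcd1).

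The large subunit catalyses peptide bond formation and the small subunit decodes the mRNA. Their proteins are needed in equal numbers, and their transcripts are among the most abundant of any cell. Most of these mRNAs begin at a cytosine followed by an unbroken run of pyrimidines, the 5′ terminal oligopyrimidine (TOP) element, through which mTOR signalling controls their translation. In neurons the transcripts are present in the cell body and also in dendrites and axons.

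The members were abundant and short. Their mean level over the 45 mice had a median of 11.4 (range 6.98 to 13.3), against 8.20 over the other genes, and their annotated transcripts had a median length of 780 bases against 2837 for the other genes. After division by transcript length (level minus log2 of length in kilobases), Rplp1 was the highest at 14.32, followed by Rps15 at 13.45 and Rps29 at 13.41. Rps27l, a paralog of Rps27 described as a p53 target, was the lowest at 7.98. The lengths are those of the annotation, which gives 5130 bases for Rps15a and 3706 for Rps20, so their positions on the per-length scale are uncertain.

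Windows of 30 bases around annotated transcription starts are shown because the pyrimidine run at the start is the sequence feature by which these mRNAs are known. They come from RefSeq (GRCm38.p6), which gave a start for 57 of the 77 members. Rpl32 is not among them. Each window holds the 15 bases before the start and the first 15 of the transcript, 5′ to 3′ on the gene's strand, with the longest run of C and T in capitals. The first 6 belong to the members of each subunit with the smallest p for diet that had an entry, in the order large then small subunit:
Rpl26 (chr11:68901551-68901580, plus strand): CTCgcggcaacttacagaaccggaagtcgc
Rpl38 (chr11:114668565-114668594, plus strand): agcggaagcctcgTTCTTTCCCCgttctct
Rplp2 (chr7:141447636-141447665, plus strand): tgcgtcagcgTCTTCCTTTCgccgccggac
Rps10 (chr17:27635230-27635259, minus strand): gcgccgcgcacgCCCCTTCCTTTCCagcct
Rps28 (chr17:33824548-33824577, minus strand): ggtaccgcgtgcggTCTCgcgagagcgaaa
Rps18 (chr17:33955651-33955680, minus strand): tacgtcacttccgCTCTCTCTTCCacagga

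The last 3 belong to the members with the smallest diet difference that had an entry:
Rpl5 (chr5:107900513-107900542, plus strand): TCTCacgtcgcttgcgtgctggtggtgcta
Rpl39 (chrX:37085208-37085237, minus strand): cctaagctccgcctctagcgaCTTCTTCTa
Rps15a (chr7:118116133-118116162, minus strand): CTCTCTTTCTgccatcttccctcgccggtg

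Runs of 10 to 13 pyrimidines spanned the start in Rpl38, Rplp2, Rps10 and Rps18. The Rps28 run over the start had 4 bases, and the longest run of Rpl26 had 3 and lay upstream. Among the members with the smallest differences, Rps15a had a run of 9 across the start besides the longer one of 10 before it, Rpl39 had one of 5 over the start besides 8 downstream, and Rpl5 had none over the start. A run of 8 or more C or T bases, read on the gene's strand only, was in the window of 24 of the 57 members (42.1%) and of 1396 of 11616 genes with an entry (12.0%). The share was 44.1% in the large subunit (15 of 34) and 39.1% in the small subunit (9 of 23). A run is a description of these letters at the annotated start, and no use of the start was measured.

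To describe each mouse, the median deviation of the members from their own 45-mouse means was taken per subunit. In AwTw/STD mice the large subunit level ranged from -0.60 to 0.33 with a median of -0.44, and in AwTw/TWD mice from -0.30 to 0.70 with a median of 0.22. In AwT+ mice it ranged from -0.48 to -0.23 on STD (median -0.31) and from -0.32 to 0.57 on TWD (median -0.04). The 5 A+Tw/STD mice were at -0.44, -0.33, -0.30, 0.27 and 0.66, and the A+Tw/TWD mice lay between -0.18 and 0.62 (median 0.34). The 4 A+T+/STD mice were at -0.24, 0.09, 0.09 and 0.09, and the A+T+/TWD mice lay between -0.26 and 0.60 (median 0.05). The STD and TWD mice of every genotype overlapped. The AwT+/STD group was the tightest, with an SD of 0.09 (n = 6), and A+Tw/STD the widest, with an SD of 0.47 (n = 5).

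**Figure D1:**
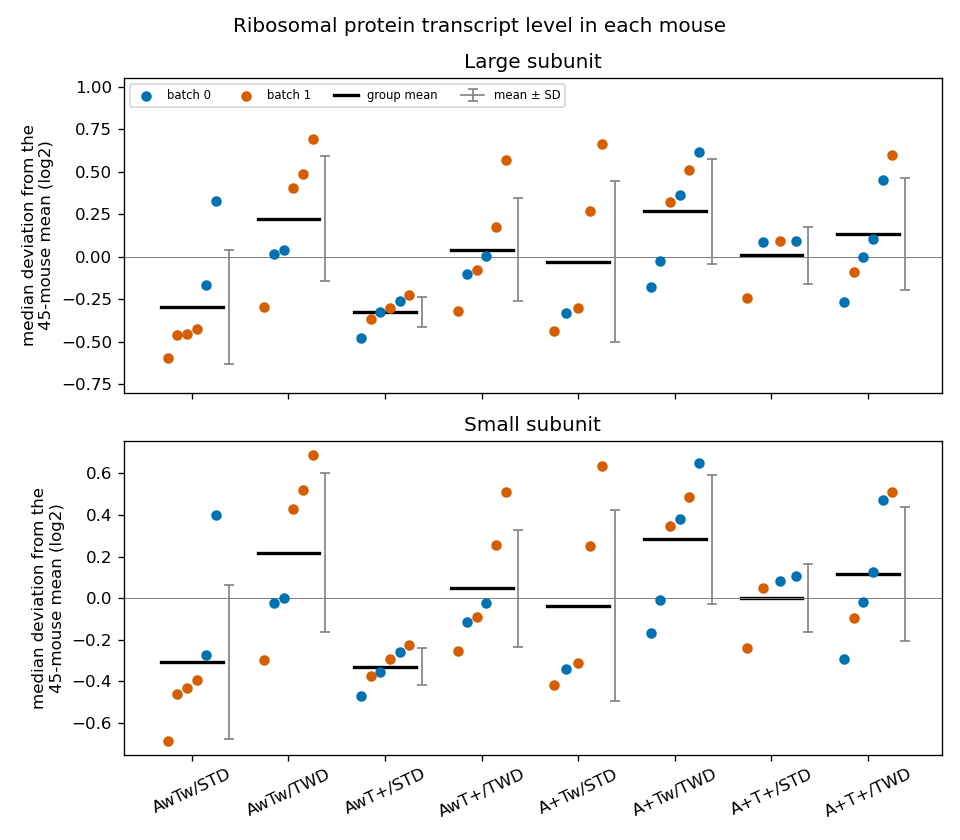
Median deviation of the large (top) and small (bottom) subunit transcripts from their 45-mouse means, in log2, for each mouse of the 8 groups, coloured by batch. Black lines are group means and grey bars are mean ± SD. The AwTw/STD mice lie low except for 1 batch 0 mouse at 0.33 for the large subunit, and every group of STD mice overlaps the TWD mice of its genotype.

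The large and small subunit levels moved together from mouse to mouse. Their difference within a mouse stayed between -0.08 and 0.11, while either level spanned more than 1 on the log2 scale. The correlation of the 2 medians over 45 mice was r = 0.994 (Spearman's rho = 0.988), given as a description because the genes share libraries and scaling. Against the median of the other members, 59 of the 77 had r above 0.9 over the 45 mice, with a median of 0.958. Rps14 followed the others most closely (r = 0.994). Rpl5 (r = 0.278), Rpl39 (r = 0.424), Rps15a (r = 0.507) and Rps27l (r = 0.538) followed least.

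The first comparison asked how TWD changed these transcripts irrespective of genotype, with genotype and batch in the limma fit. All 77 members were higher on TWD, against 7906 of all 15897 genes. Of the members 64 rose at an adjusted p under 0.05, 39 of the large and 25 of the small subunit. None fell. Over all genes tested, 16% were called higher and 13.4% lower. The median difference was 0.33 for the large subunit and 0.36 for the small subunit, against -0.001 over all genes, that is, a level about 1.3-fold higher. All 77 members overlapped between the diets, and in 66 of them at least 20 of the 24 TWD mice lay above the STD median. How many of all genes did either was not counted.

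Among large subunit proteins the smallest p belonged to Rpl32, Rpl26 and Rpl38. Rpl32 had a lowest, median and highest value of 10.71, 11.14 and 12.19 in the 21 STD mice and of 11.11, 11.59 and 12.16 in the 24 TWD mice. The medians differed while the upper ends of the ranges coincided. Its fitted difference was 0.39 ± 0.10 (SE; 1.31-fold, adjusted p = 0.0157, limma). Rpl26, which lies near the exit of the nascent chain tunnel, went from 11.22, 11.66 and 12.74 on STD to 11.63, 12.11 and 12.82 on TWD, a difference of 0.45 ± 0.11 (adjusted p = 0.0157). Rpl38, required for translation of a subset of Hox mRNAs in the mouse embryo, went from 10.24, 10.48 and 11.57 to 10.40, 10.91 and 11.66, a difference of 0.42 ± 0.11. The largest differences of the subunit were those of Rpl28 (0.50 ± 0.13, 1.41-fold), Rpl27 (0.48 ± 0.15) and Rpl13a (0.47 ± 0.13), the last of which is also the protein released from ribosomes in the GAIT pathway. Rplp2 and Rpl37, next in order of p, differed by 0.44 ± 0.12 and 0.39 ± 0.10.

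The stalk of the large subunit recruits the elongation factors and is built from Rplp0, which binds the ribosome, and dimers of Rplp1 and Rplp2. All 3 rose. Rplp0 was at 11.25, 11.66 and 12.58 (lowest, median, highest) on STD and at 11.53, 12.07 and 12.59 on TWD, a difference of 0.32 ± 0.09 (adjusted p = 0.0169). Rplp1 went from 12.50, 13.05 and 14.05 to 12.82, 13.39 and 14.34 (difference 0.38 ± 0.12, adjusted p = 0.0185), and Rplp2 from 10.47, 10.99 and 12.02 to 10.90, 11.44 and 12.18 (adjusted p = 0.0157). In each of the 3, between 21 and 22 of the 24 TWD mice lay above the STD median.

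Among small subunit proteins Rps10, Rps28 and Rps18 are described in full. Rps10, a protein of the small subunit head that is ubiquitylated on stalled ribosomes, went from 10.97, 11.39 and 12.28 to 11.26, 11.85 and 12.33, a difference of 0.37 ± 0.09. Rps28 went from 10.01, 10.59 and 11.52 to 10.45, 11.01 and 11.75, a difference of 0.41 ± 0.11. Rps18, a protein of the small subunit head, went from 10.54, 11.02 and 12.01 to 10.94, 11.46 and 12.13, a difference of 0.41 ± 0.11 (1.33-fold). Each of the 3 had an adjusted p of 0.0157 (limma), and in each the diets shared most of their range. Rps26 differed by 0.41 ± 0.11. The largest differences of the subunit were those of Rps16 (0.48 ± 0.14), Rps15 (0.47 ± 0.13) and Rps14 (0.43 ± 0.12). Loss of 1 copy of the human RPS14 gene is known from the 5q- syndrome.

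The value of Rps10 is given by group as the lowest, median and highest mouse. In AwTw mice it was at 10.97, 11.28 and 11.96 on STD and at 11.48, 12.03 and 12.32 on TWD. In AwT+ mice it was at 11.24, 11.36 and 11.54 on STD and at 11.44, 11.66 and 12.22 on TWD. In A+Tw mice it was at 11.26, 11.33 and 12.28 on STD and at 11.49, 12.02 and 12.33 on TWD, and in A+T+ mice at 11.45, 11.71 and 11.78 and at 11.26, 11.76 and 12.18. The TWD median was the higher in each genotype, and the diets overlapped in each. Rpl32 had a median of 11.03 on STD against 11.71 on TWD in AwTw, of 11.11 against 11.43 in AwT+, of 11.07 against 11.84 in A+Tw and of 11.57 against 11.53 in A+T+ mice, so that its A+T+ medians differed by less than the SD of either group. In AwT+ mice the highest STD value of Rpl32 was 11.18 and the lowest TWD value 11.23, and those of Rps6 were 10.67 and 10.69. How many of all genes lacked overlap in that genotype was not counted. Neither gene was called there (adjusted p of 0.646 for both, limma), and 0% of all genes were. As with Rps10, the medians of Rpl26, Rpl38, Rps18 and Rps28 were higher on TWD in all 4 genotypes. The paralog Rps27l had a median of 6.94 on STD against 6.91 on TWD in AwTw, of 6.78 against 7.00 in AwT+, of 6.95 against 7.12 in A+Tw and of 7.10 against 6.95 in A+T+ mice, the lower one being that of TWD in AwTw and A+T+.

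Rpsa, which also serves as a laminin receptor, rose by 0.38 ± 0.10 (adjusted p = 0.0159, STD 12.32, 12.74 and 13.63, TWD 12.58, 13.24 and 14.02). Rps6, whose phosphorylation by S6 kinase is a readout of mTOR activity, rose by 0.22 ± 0.07 (adjusted p = 0.0240), from 10.31, 10.49 and 11.28 on STD to 10.44, 10.80 and 11.19 on TWD. Rpl22, which mice can lack without a general loss of translation, rose by 0.19 ± 0.07 (adjusted p = 0.0341). These values describe the transcripts, and phosphorylation and protein were not measured.

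The 13 members that were not called comprised 7 of the large and 6 of the small subunit: Rpl5, Rpl10, Rpl17, Rpl23, Rpl30, Rpl36a, Rpl39, Rps4x, Rps15a, Rps23, Rps24, Rps27a and Rps27l. Their fitted differences ran from 0.05 ± 0.05 for Rpl5, which carries the 5S rRNA and binds Mdm2, to 0.24 ± 0.10 for Rps23, which lies in the decoding centre. Rps27a, made as a fusion with ubiquitin, differed by 0.15 ± 0.07 (adjusted p = 0.0937), with 10.47, 10.85 and 11.44 on STD and 10.79, 10.99 and 11.55 on TWD. Rpl10, one of the last proteins to join the large subunit, differed by 0.14 ± 0.08 (adjusted p = 0.147), and 15 of 24 TWD mice lay above its STD median. The paralog Rps27l differed by 0.18 ± 0.09 (adjusted p = 0.0978), while Rps27 rose by 0.32 ± 0.10 (adjusted p = 0.0189); their difference was not tested.

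All 4 X-linked members (Rpl10, Rpl36a, Rpl39 and Rps4x) were among those not called, with a median difference of 0.14. The share of all X-linked genes called was not counted. The GC content of these 4 was 46.6% to 49.4%, below the median of 51.9% over all members. The members that were not called had a median GC content of 46.6% and a median transcript length of 937 bases, against 52.9% and 764 bases for those that were. Across the 77 members the diet difference correlated with GC content at r = 0.658 and with length at r = -0.330, both as descriptions across genes, which are not independent replicates. With Rps15a and Rps20 set aside for their annotated lengths, the second was -0.315.

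**Figure D2:**
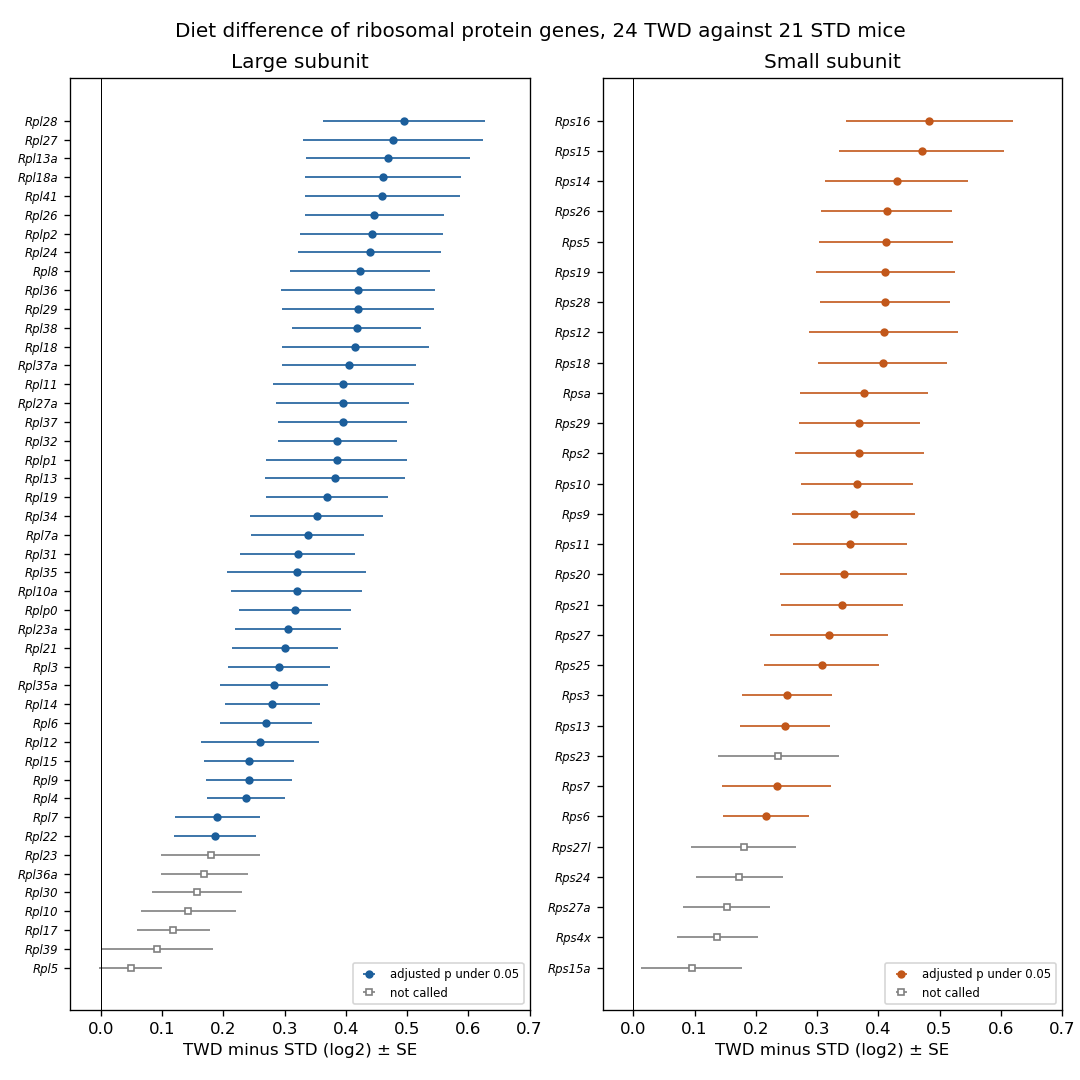
Fitted difference of TWD minus STD in log2, with its SE, for the 46 large (left) and 29 of the small (right) subunit genes over 24 TWD and 21 STD mice. Filled points passed an adjusted p of 0.05 (62 genes) and open squares did not (13 genes); every point lies above 0, from 0.05 for Rpl5 to 0.50 for Rpl28.

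Among ribosomal proteins and paralogs outside the rule, some rose and others were not called. Fau, which carries Rps30 fused to a ubiquitin-like protein, rose by 0.50 ± 0.14 (adjusted p = 0.0159). Rps3a1 rose by 0.26 ± 0.06, Rpl36al by 0.26 ± 0.07 and Rack1, a scaffold on the small subunit, by 0.31 ± 0.09. The paralogs Rpl22l1 and Rpl7l1 were not called, with differences of -0.42 ± 0.23 and 0.000 ± 0.060, and the pseudogene Rps4l had 0.31 ± 0.12 (adjusted p = 0.0509). Of 28 ribosomal protein pseudogenes in the table, 10 were called higher and 0 lower, where 16% and 13.4% of all genes were. The pseudogene median was 0.14. Reads of 50 bases cannot always be told apart between a member and its processed pseudogenes, so these values are uncertain.

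The rest of the translation machinery was less uniform. Over all genes, 16% were called higher and 13.4% lower, and the lists were not tested against these shares. Of 37 initiation factors 14 rose and 2 fell (median 0.05), among them Eif1b (0.33 ± 0.07, adjusted p = 0.0157) and Eif3k (0.37 ± 0.11, adjusted p = 0.0171). Of 14 elongation and termination factors 8 rose and 2 fell (median 0.19), with Eef1d at 0.36 ± 0.10 and Eif5a2 at -0.68 ± 0.22. Of 23 TOP mRNAs that are no member, some of which are also in the lists just given, 12 rose and 0 fell (median 0.14). Of 45 assembly and nucleolar factors 16 rose and 4 fell (median 0.08), with the methyltransferase Fbl at 0.27 ± 0.07 and the small subunit assembly factor Tsr1 at -0.29 ± 0.08. Of 15 ribosome-bound chaperones and targeting factors 5 rose and 3 fell (median 0.12). In the pathway from mTOR to the ribosome, 1 of 16 genes rose, the inhibitor Tsc2 (0.40 ± 0.09, adjusted p = 0.0157). The inhibitor Tsc1 (-0.18 ± 0.05) and the S6 kinase gene Rps6kb1 (-0.26 ± 0.09) fell.

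Genes of other pathway groups were also called higher, where 16% of all genes were called higher and 13.4% lower. Of 81 oxidative phosphorylation subunits 59 rose and 1 fell (median 0.29), of 78 mitochondrial ribosomal proteins 47 rose and 0 fell (median 0.20), and of 38 proteasome subunits 19 rose and 1 fell (median 0.13). Among genes that are no member, the median diet difference was 0.09 in transcripts below 500 bases, 0.13 at 500 to 700 and highest at 700 to 1000 bases (0.14), and it went down from there to -0.17 above 6000 bases. The 11 members below 500 bases had a median of 0.37, and the 18 at 500 to 700 bases had 0.41. For the 133 other genes with transcripts under 1000 bases and a mean level of at least 10.3 (the 10th percentile of the members), the median was 0.32 and 77.4% were called higher. The median of the 54 members under 1000 bases was 0.37.

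**Figure D3:**
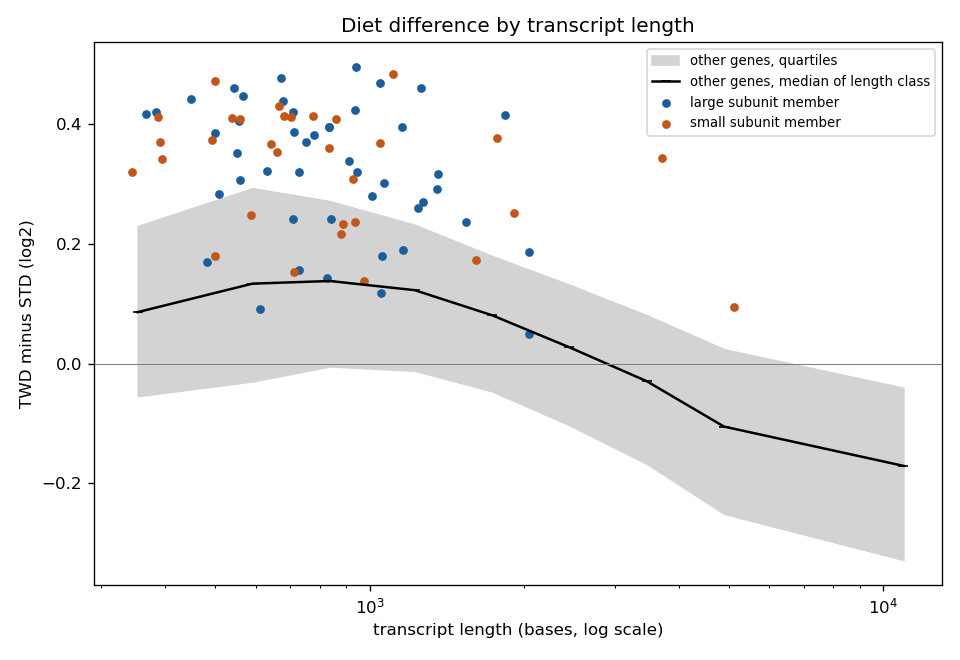
Diet difference (TWD minus STD, log2) against annotated transcript length on a log axis. The black line and grey band are the median and quartiles of the genes that are no member in 9 length classes, and the points are the 77 members. The line goes from 0.09 below 500 bases up to 0.14 at 700 to 1000 bases and down to -0.17 above 6000 bases, and 58 of the 77 members lie above the upper quartile of their class. The classes are not matched for level. The other genes of 700 to 1000 bases have a median level of 7.3, and the members one of 11.4.

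The same gradient was present in single mice. For each mouse the deviations of all genes that are no member were regressed on log2 transcript length, which gave slopes from -0.17 to 0.16 per doubling of length on STD (median 0.07) and from -0.20 to 0.09 on TWD (median -0.04). A mouse with a negative slope has relatively more signal in short transcripts. Over 45 mice the member median correlated with this slope at r = -0.982 (Spearman's rho = -0.972, adjusted permutation p = 2.17e-05 and 1.86e-05 over 13 relations, from the smallest p that the permutations can give). The correlation was -0.972 within batch 0, -0.986 within batch 1, -0.985 within STD and -0.973 within TWD mice, and -0.979 without the 2 mice with the most extreme slopes. The 2 measures come from the same libraries and scaling, and RNA quality per mouse was not among the values used here.

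**Figure D4:**
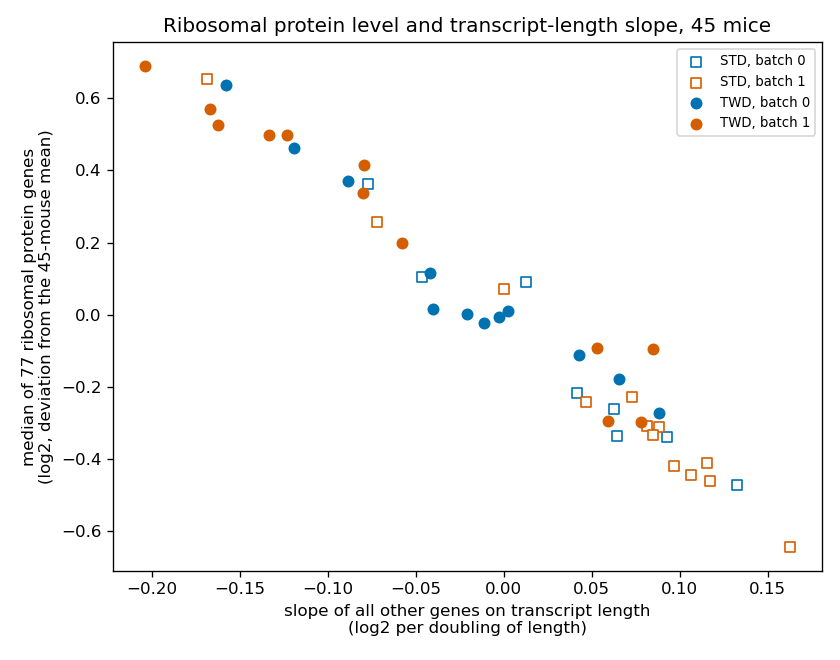
Median level of the 77 members (log2 deviation) against the slope of all other genes on transcript length (log2 per doubling of length) in each of 45 mice. Open squares are STD and filled circles TWD mice, coloured by batch. The points lie along 1 falling line (r = -0.982) in both batches and both diets.

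Levels of 11 marker and pathway lists were set beside the member median in the same way. Oxidative phosphorylation subunits gave r = 0.983 (rho = 0.974), mitochondrial ribosomal proteins r = 0.966 (rho = 0.954) and proteasome subunits r = 0.888 (rho = 0.886), each at an adjusted permutation p of 2.17e-05 for r and 1.86e-05 for rho, and each at 0.825 or above within both batches and both diets. Oligodendrocyte markers gave r = 0.816 (rho = 0.822, the same permutation p-values), with 0.676 in batch 0, 0.868 in batch 1, 0.840 within STD and 0.733 within TWD mice. Microglial markers gave r = 0.566 (adjusted permutation p = 9.75e-05) and rho = 0.645 (1.86e-05), with 0.537 and 0.592 in the batches, 0.660 within STD and 0.364 within TWD mice. The microglial level also differed by genotype, with group medians of -0.60 to -0.17 in Aw and of 0.29 to 0.63 in A+ groups. Correlations within genotypes were not computed, and the permutations did not hold genotype, diet or batch. Astrocyte markers gave r = -0.584 (adjusted permutation p = 7.43e-05) and rho = -0.441 (0.00409), with -0.707 and -0.531 in the batches. Within the diets the astrocyte value was -0.154 over STD and -0.706 over TWD mice. Leaving out the 2 mice farthest in each measure gave 0.517 for microglial, -0.504 for astrocyte and 0.784 for oligodendrocyte markers. In bulk tissue, more cells of a type and more RNA per cell of that type cannot be told apart.

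Blood markers gave r = 0.416 (adjusted permutation p = 0.00597; rho = 0.399, 0.0106; 0.429 and 0.411 in the batches; 0.38 without the 2 farthest mice), with 0.222 within STD and 0.615 within TWD mice. General neuron markers gave r = 0.270 (adjusted permutation p = 0.0948) and rho = 0.367 (0.0173), but -0.212 in batch 0 and 0.564 in batch 1, and 0.406 within STD against -0.0303 within TWD mice. Hippocampal neuron, endothelial and choroid plexus markers gave r = -0.233, 0.182 and 0.0252 (adjusted permutation p = 0.145, 0.252 and 0.868). The hippocampal neuron value had opposite signs within the diets, 0.0959 over STD and -0.561 over TWD mice. The endothelial value was 0.284 and 0.0606, and that of the choroid plexus -0.00357 and 0.231. The differences between the diets in these correlations were not tested. The slope of the other genes on GC content gave r = 0.856 (rho = 0.879), with 0.530 in batch 0, 0.953 in batch 1, 0.799 within STD and 0.848 within TWD mice.

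Marker lists in the diet comparison are given beside the shares over all genes, 16% called higher and 13.4% called lower. The lists were not tested against these shares. Of 12 microglial markers 7 rose and 1 fell (median 0.32, summarised level -0.69 to 0.77 on STD and -0.43 to 0.74 on TWD). Of 8 oligodendrocyte markers 4 rose and 0 fell (median 0.18, levels -0.38 to 0.37 and -0.37 to 0.62). Of 8 astrocyte markers 2 rose and 3 fell (median -0.19, levels -0.24 to 0.33 and -0.61 to 0.48). Of 8 neuron markers 3 rose and 1 fell, of 8 hippocampal neuron markers and 9 choroid plexus markers 0 were called, of 7 endothelial markers 1 rose and 1 fell, of 4 blood markers 0 were called and of 9 immediate early genes 2 rose. The part of cell composition in the members' difference was not tested. With the choroid plexus level as a covariate 66 members were called, where 16.8% of all genes were called higher. That level was nearly unrelated to the member median (r = 0.0252), so this fit can say little about composition. The other marker lists were not used as covariates.

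The 2 batches differed in how many members were called. In batch 1 alone (13 STD and 12 TWD mice) 65 members were called higher, with medians of 0.52 for both subunits, where 20.3% of all genes were called higher. In batch 0 alone (8 STD and 12 TWD mice) 0 members and 0% of all genes were called by limma. At an unadjusted p under 0.05 were 0 members, against 5.55% of all genes. The medians were 0.16 for the large and 0.15 for the small subunit. On TWD 75 of 77 members were higher, against 8265 of all 15897 genes. The diet effect in batch 1 minus that in batch 0 had a median of 0.37 over the members, and 0 members passed the test of that difference (smallest adjusted p = 0.126), as did 0% of all genes. At an unadjusted p under 0.05 were 32 members (41.6%) and 28% of all genes. Rpl28 differed by 0.22 ± 0.14 in batch 0 and by 0.76 ± 0.20 in batch 1, Rplp0 by 0.16 ± 0.09 and 0.49 ± 0.14, and Rpl10 by -0.02 ± 0.09 and 0.29 ± 0.11.

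After a trend on transcript length and GC content was removed from each mouse, 51 members were called higher (29 large and 22 small), 50 of which were also among the 64, against 7.93% of all genes. The medians were then 0.19 for the large and 0.22 for the small subunit. Rpl32 kept 0.26 ± 0.07 (adjusted p = 0.0216) and Rplp2 0.24 ± 0.06, while Rplp1 (0.16 ± 0.06, adjusted p = 0.0651) and Rps6 (0.12 ± 0.05, adjusted p = 0.108) were no longer called. A residual component was also used as a covariate. Its gene weights came from the leading principal component of the other genes' residuals after group and batch. Each mouse was scored with these weights on its full values, so the score can hold part of a diet difference. With this score in the fit 0 members (smallest adjusted p = 0.575) and 0% of all genes were called, and the median was 0.10. At an unadjusted p under 0.05 were 16 members (20.8%) and 8.11% of all genes.

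Diet was then compared within each genotype, in a fit of the 8 groups and batch. In AwTw mice 30 members rose on TWD, 16 large and 14 small, and 0 fell, where 6.01% of all genes were called higher and 3.34% lower. All 30 were also called over genotypes. The medians were 0.56 for the large and 0.57 for the small subunit. Rpl18 differed by 0.79 ± 0.23, Rplp0 by 0.59 ± 0.17, Rpl29 by 0.79 ± 0.23 and Rps10 by 0.59 ± 0.18, each with an adjusted p of 0.0498 (limma). All 30 adjusted p-values were 0.0498, just under the threshold, and the next member, Rpl13a, had 0.0501.

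The count of called members in AwTw changed with single mice, also of other genotypes, and with batch. In batch 1 the 4 AwTw/STD mice had large subunit levels of -0.60 to -0.43 and the 4 AwTw/TWD mice of -0.30 to 0.70, and 60 members were called in that batch, where 14.3% of all genes were called higher and 10.7% lower. In batch 0 the 2 AwTw/STD mice were at -0.17 and 0.33 and the 2 AwTw/TWD mice at 0.01 and 0.04, and 0 members and 0% of all genes were called, with a median of -0.07. Without AwTw/STD replicate 2, the high mouse of batch 0, 61 members and 15.6% of all genes were called higher. Without any of AwTw/STD replicates 1, 3, 4 or 5 or AwTw/TWD replicates 1, 2, 3 or 6, 0 members and 0% of all genes were called, while the medians stayed between 0.44 and 0.59 for the large and between 0.47 and 0.59 for the small subunit. Without AwTw/STD replicate 6, AwTw/TWD replicate 4 or AwTw/TWD replicate 5 the count was 46, 43 and 59, where 17.3%, 12.4% and 19.6% of all genes were called higher. Leaving out a mouse of another genotype, such as A+Tw/TWD replicate 1 or AwT+/STD replicate 1, could also give 0 members and 0% of all genes. The AwTw medians were then 0.56 and 0.57, as in the full fit. Without A+Tw/TWD replicate 2 the count was 35, where 7.47% of all genes were called higher. After removal of the length and GC trend 0 members and 0% of all genes were called (median 0.31). With the choroid plexus level as a covariate 36 members and 8.27% of all genes were called higher.

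In the transgenic groups no member was called for diet by limma. In AwT+ mice the median difference was 0.36, and all 77 members were higher on TWD, against 8153 of all 15897 genes. At an unadjusted p under 0.05 were 28 members (36.4%, against 7.44% of all genes), and 0% of all genes were called. Rpl22 had the smallest p (0.37 ± 0.13, adjusted p = 0.646). In A+Tw mice the median was 0.32 with 2 members at an unadjusted p under 0.05 (2.6%, against 4.43% of all genes), led by Rps27l (0.43 ± 0.18, adjusted p = 0.706), which was at 6.48 to 7.00 on STD and 6.84 to 7.84 on TWD. In A+T+ mice the median was 0.13 with 0 at an unadjusted p under 0.05 (against 2.57% of all genes), and Rpl27 led with 0.41 ± 0.33 (adjusted p = 0.998). In both, 0% of all genes were called.

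The diet effect of each transgenic genotype was tested against that of AwTw, and 0 members and 0% of all genes were called in the 3 tests by limma, with 0 members at an unadjusted p under 0.05 (against 4.02% of all genes for AwT+, 2.21% for A+Tw and 6.3% for A+T+). The medians were -0.20 for AwT+, -0.19 for A+Tw and -0.40 for A+T+. The smallest p belonged to Rpl18 in AwT+ (-0.50 ± 0.32, adjusted p = 0.780), Rps27l in A+Tw (0.37 ± 0.24, adjusted p = 0.919) and Rpl18 in A+T+ (-0.69 ± 0.34, adjusted p = 0.560).

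The genotypes were also compared with AwTw on the same diet, and 0 members were called in the 6 comparisons by limma. On STD, AwT+ differed from AwTw by a median of -0.02 (1 member at an unadjusted p under 0.05, or 1.3% against 2.39% of all genes, Rpl17, -0.30 ± 0.11, adjusted p = 0.999), with 0% of all genes called. A+Tw was higher by a median of 0.25 with 46 of 46 large and 30 of 31 small subunit members above AwTw (3 at an unadjusted p under 0.05, or 3.9% against 5.66% of all genes, Rpl10a first with 0.46 ± 0.22, adjusted p = 0.785), where 0.925% of all genes were called. A+T+ was higher by a median of 0.29 with 45 of 46 large and 31 of 31 small subunit members above (3 at an unadjusted p under 0.05, or 3.9% against 14.3% of all genes, Rps12 first with 0.62 ± 0.26, adjusted p = 0.274), where 1.32% of all genes were called. The 3 comparisons share the AwTw/STD mice.

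On TWD the medians were -0.18 for AwT+ (0 members at an unadjusted p under 0.05, Rpl18 first with -0.40 ± 0.23, adjusted p = 0.865, 0% of all genes called), 0.06 for A+Tw (1, Rpl10, 0.35 ± 0.15, adjusted p = 0.774, 0.824% of all genes called) and -0.09 for A+T+ (0, Rpl10 first with 0.26 ± 0.15, adjusted p = 0.706, 0.73% of all genes called). At an unadjusted p under 0.05 were 3.04%, 5.2% and 7.76% of all genes in these 3 comparisons, which share the AwTw/TWD mice. Members above AwTw numbered 11 of 77 for AwT+, 64 for A+Tw and 19 for A+T+. Of all 15897 genes, 8481, 7329 and 7495 were above AwTw in the same order.

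**Figure D5:**
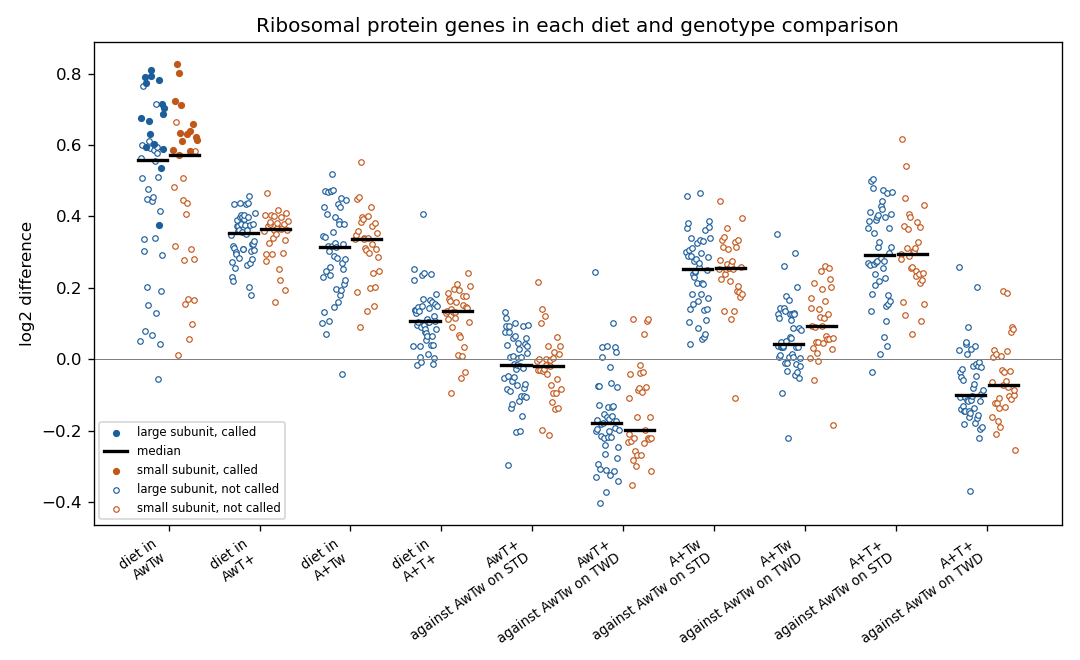
Fitted log2 difference of each member in the 4 diet and 6 genotype comparisons, large and small subunit side by side, with black lines for the medians. Filled points passed an adjusted p of 0.05, which 30 members did for diet in AwTw mice and 0 in the other 9 comparisons. The AwTw diet medians lie at 0.56 and 0.57 and those of A+T+ at 0.11 and 0.13.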

How the data were processed

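Hippocampal RNA of 45 mice was sequenced by the authors as stranded mRNA libraries with single 50-base reads in 1 pool. Per the labels they used Trimmomatic 0.38, Bowtie2 2.2.3 against rRNA and mitochondrial reads, kallisto 0.44.0 and DESeq2 1.22.2. The authors deposited log2 values: variance-stabilised levels from which limma 3.38.3 had removed the batch difference. Since that removal did not hold the groups, batch was kept as a covariate. Values ran from 1.90 to 18.1, and depth is unknown. Count tests were not applicable.

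Differences were fitted with limma 3.58.1 (R 4.3.3) over all 15897 genes, with a mean-variance trend, Benjamini-Hochberg adjustment and a threshold of 0.05. On simulated data with 200 of 15897 genes changed in the diet comparison, 88% of changes of 0.5 and 99% of changes of 1 were recovered. Recovery where genes vary together from mouse to mouse, as the members did, was not tested. Lengths and GC content came from GENCODE M21 (GRCm38). Permutation tests were two-sided with 100000 resamples.

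The members, the gene lists and the tests were chosen with earlier results of these data known. Named genes were the 6 called members of each subunit with the smallest p for diet, the 3 with the largest differences, Rplp0, Rplp1, Rplp2, Rpsa, Rps27a, Rps6, Rpl22, Rpl10 and paralogs, the leading members (at most 4) of each other comparison, and at most 3 genes of each list. The members not called were named after their values were seen. Alternatives were another normalization, filter, trend, threshold and covariates, each batch alone, and each mouse left out. A test of diet by batch was added after seeing the data. A further 157 genes repeat the values of another gene; no member does. Some genes are not reported here.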

Additional observations from a re-analysis of the deposited data

Results flagged for a closer look

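Single mice stood apart from their groups in 2 of 72 tests of the extreme mouse against the group's range (Dixon's 95% critical value, where chance flags about 1 group in 20). The large subunit level of A+T+/STD replicate 4 was -0.24, while the other 3 mice of the group lay between 0.087 and 0.092. Rpl38 in AwTw/STD replicate 2 was at 11.3, while the other 5 mice lay between 10.2 and 10.6. Without that mouse the Rpl38 difference between the diets stayed called.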

How the results depend on the processing

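Over genotypes the 64 called members became 0 in batch 0 alone, with the residual component as a covariate and at an adjusted p of 0.01. In each of these 0% of all genes were called higher. Under the other alternatives the count stayed within 1.5 times of 64, where 7.93% to 21.7% of all genes were called higher. When each mouse was left out the count ran from 58 (10.8% of all genes) to 73 (17.5%). For diet in AwTw the 30 became 0 in batch 0, with the AM or PM prefix of the mouse name as a covariate, after quantile normalization, after removal of the length and GC trend, without the mean trend, in a fit of the 2 groups alone, with the residual component and at 0.01, and 0% of all genes were called higher in each of these. The fold stayed about as large in 4 of them: the medians were 0.56 (large) and 0.57 (small) as before with the prefix, without the mean trend and in the 2 groups alone, and 0.495 and 0.467 after quantile normalization. They were 0.31 and 0.32 without the length and GC trend and 0.062 and 0.061 with the residual component. The 30 became 60 in batch 1, 46 among genes above the 25th percentile of level and 56 at 0.1. Leaving out 1 mouse at a time gave from 0 to 61, with 0 in 32 of 45 fits and at least 35 in the others. The medians ran from 0.44 to 0.70 (large) and from 0.47 to 0.71 (small). Of all genes, 0% were called higher in the fits with 0, 7.47% or 7.83% in those with 35 and 15.6% with 61. The reversed values were all in batch 0: AwTw medians of -0.057 (large) and -0.081 (small), and Rpl10 over genotypes at -0.022. The cause of these changes was not tested, except that a smaller number of mice or genes entered some fits. The other 12 counts stayed at 0 under every alternative run. Of the 30 named members, 27 differed in direction or call in batch 0 and 26 with the residual component, but 0 to 4 under any other setting that kept all mice. In batch 0 the lone A+Tw/STD mouse was assumed to vary like the other groups. No paired analysis was possible because the labels give no replicate numbers shared between groups. Depth per mouse is unknown.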
